A study of Mus musculus with 6 samples.

Results

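Mouse genes listed under a RIKEN clone name of one testis plate series, that of 4933411K16Rik, were examined in whole testis RNA from MRP5/MRP9 double-knockout and wildtype mice. A gene was a member when its identifier began with the same 4 digits as 4933411K16Rik and ended in Rik, which gave 108 of the 24411 genes in the files. By the RefSeq accessions listed for each gene, 30 members had at least one NM_ accession and are called coding, and 78 had NR_ accessions only and are called noncoding. RNA was sequenced from the testes of C57BL/6 mice, with 3 libraries labelled Wildtype (WT) and 3 labelled MRP5-/- and MRP9-/- (DKO). C57BL/6 is a standard inbred strain, the series describes the animals as matched for age, and the ages and the design of the alleles are not given in the sources used here. MRP5 and MRP9 are ATP-binding cassette membrane transporters, encoded by Abcc5 and Abcc12. The design text speaks of 3 mice per genotype, but no label ties a library to an animal, so p-values measure only the spread between these libraries, which may be technical. Libraries are numbered in order of deposition.

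RIKEN clone names were given to full-length cDNAs before the genes behind them were understood. The plates behind these names held clones from adult male mouse testis, so the name itself selects transcripts that were present in that organ. The adult testis transcribes an unusually wide part of the genome, above all in meiotic spermatocytes and in the haploid spermatids that follow. Many of its transcripts are long noncoding RNAs, transcribed pseudogenes or intronless gene copies. Genes with a known product are often renamed later, so those still under a clone name are mostly uncharacterised. Members were picked by the identifier listed here, and RefSeq now gives another symbol to 10 of the 30 coding members.

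Library totals were 26753721 to 31745969 expected counts in WT and 42673615 to 67131103 in DKO, without overlap (exact two-sided permutation test, p = 0.1, the smallest that 3 against 3 allows). Mean fragment length, read from the gap between gene length and effective length, did not overlap either, at 230 to 258 bases in WT and 275 to 317 bases in DKO (exact permutation p = 0.1). Depth, fragment length and genotype cannot be told apart by the design. Abcc12 was at 158 to 165 counts scaled to library size (CPM) in WT and at 72.6 to 82.4 CPM in DKO (log2 fold change -1.02, SE 0.0739; edgeR adjusted p = 0.000307). Abcc5 was at 10.5 to 12.3 CPM in WT and at 16.7 to 17.0 CPM in DKO. It was thus called higher, not lower, in the libraries labelled DKO (log2 fold change 0.56, SE 0.0896; edgeR adjusted p = 0.0225). Of the 13 alternative fits named at the end, 7 called Abcc5 and 13 called Abcc12. Germ-cell markers were abundant, with summed spermatid markers at 102362 to 111093 TPM (transcript abundance scaled for length and depth) in WT and 108330 to 118142 TPM in DKO. Summed Leydig markers were at 1589 to 3197 TPM in WT and 948 to 1602 TPM in DKO, with 2 of 10 called lower. Summed Sertoli markers were at 1796 to 2297 TPM in WT and 1366 to 1711 TPM in DKO, with 3 of 10 called lower, where 5.1% of all genes were called lower. Other somatic lists also had median log2 fold changes below 0. These were -0.31 for peritubular myoid (1 of 5 called lower), -0.18 for macrophage and -0.17 for endothelial markers (0 called in either). Spermatogonial, spermatocyte and spermatid markers had medians of 0.00, 0.32 and -0.04. Fewer cells of a type and less RNA per cell cannot be told apart in whole testis, and the part of cell composition in the results below was not tested. Of 5 epididymal markers 1 passed the count filter, and Lcn5 was listed at 0 in all 6 libraries.

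The members were spread over the genome. All 108 matched the RefSeq gene table of GRCm38.p6, whose build corresponds to the mm10 listed in the submitters' processing notes. They lay on all 19 autosomes and on chromosome X, most often on chromosome 7 (12 members), with 7 on X and 0 on Y. RefSeq now gives another symbol to 10 of the 30 coding members and to 0 of the 78 noncoding members. The accession split did not always match that table's biotype. The noncoding members comprised 72 long noncoding RNA genes, 5 transcribed pseudogenes and 1 gene listed as protein-coding (4933424G06Rik), and 1 coding member (4933427D06Rik) is listed there as a long noncoding RNA gene. Median transcript length was 1554 bases for coding members (1023 to 4332 bases) and 1274 bases for noncoding members (597 to 5407 bases). Lengths up to 1000 bases were found for 0 of the 30 coding and 17 of the 78 noncoding members, so the classes were not matched for length. A GENCODE M21 gene model carrying the same accession was found for 29 coding and 73 noncoding members. The median number of exons was 4 in each class. Single-exon models numbered 5 of the 29 coding and 4 of the 73 noncoding members. An annotated gene on the opposite strand overlapped 37 of the 73 noncoding and 5 of the 29 coding members. Strand handling is not given in the sources used here, so reads of such overlapping pairs cannot be told apart.

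Expression in WT testis was compared between the classes in TPM, which scales by length and allows levels of different genes to be set side by side. Coding members had a median of 32.3 TPM, with 8 of 30 at 100 TPM or more. Noncoding members had a median of 7.04 TPM, with 3 of 78 at 100 TPM or more. The medians differed 4.59-fold, and the order held in each WT library, with 33.1, 34.0 and 30.7 TPM for coding and 7.13, 6.72 and 7.01 TPM for noncoding members. The distributions still overlapped: 11 noncoding members lay above the coding median and 4 coding members lay below the noncoding median. Against all genes of the same accession class, whose medians were 3.95 TPM for coding and 0.027 TPM for noncoding genes, both groups were abundant. At least 1 TPM in every WT library was reached by 29 of 30 coding members (96.7%, against 62.7% of all coding genes) and by 63 of 78 noncoding members (80.8%, against 26.9% of all noncoding genes). No test was made of these shares, since testis cDNA was the source of the names.

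**Figure D1:**
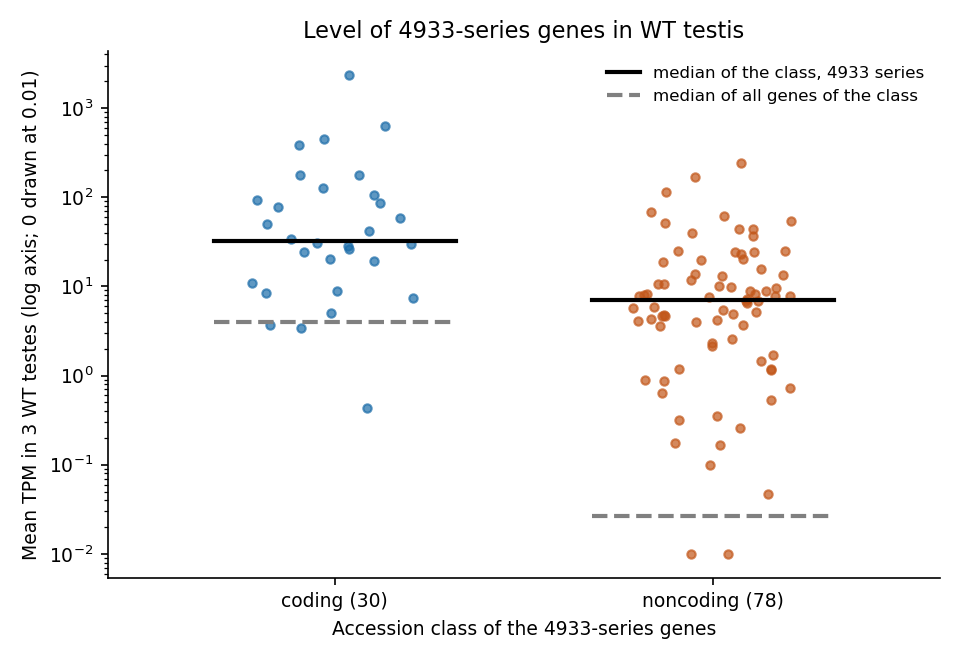
Mean TPM over the 3 WT testes on a log axis for each of the 108 clone genes, by accession class, with 1 point per gene (values of 0 are drawn at 0.01). Solid lines mark the class medians of 32.3 and 7.04 TPM, and dashed lines mark the medians of all coding (3.95 TPM) and all noncoding (0.027 TPM) genes.

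The same split was seen in the other RIKEN testis names, at different levels. The 122 coding genes of the 1700 series had a median of 172 TPM in WT and its 243 noncoding genes had a median of 15.2 TPM. On the neighbouring plates, whose names begin as those of 4930557F10Rik and the next 2 numbers do, the 96 coding genes had a median of 24.2 TPM and the 314 noncoding genes had a median of 4.15 TPM. The members thus lay below the 1700 series and above the neighbouring plates in both classes, as a description without a test.

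A single gene carried much of the signal. All 108 members together held 0.650% of WT TPM while making up 0.442% of the genes, and 36.5% of the members' share came from 4933411K16Rik, the most abundant member and rank 25 among all genes. It is a single-exon protein-coding gene of uncharacterised function on chromosome 19 (GRCm38.p6 chr19:42052228-42053628, plus strand) and overlaps the span of Hoga1 on the same strand. Its level was 2408, 2309 and 2392 TPM in the WT libraries and 2173, 2331 and 2460 TPM in the DKO libraries. The groups overlapped, and the log2 fold change in DKO was -0.01 (SE 0.0784; edgeR quasi-likelihood test, adjusted p = 0.950). The RefSeq start-site window of this gene, 250 bases before to 50 after the start, is printed because no other member approached its level. Of the letters searched (given below with the motif counts) it held none.
4933411K16Rik, chr19:42051978-42052277, plus strand: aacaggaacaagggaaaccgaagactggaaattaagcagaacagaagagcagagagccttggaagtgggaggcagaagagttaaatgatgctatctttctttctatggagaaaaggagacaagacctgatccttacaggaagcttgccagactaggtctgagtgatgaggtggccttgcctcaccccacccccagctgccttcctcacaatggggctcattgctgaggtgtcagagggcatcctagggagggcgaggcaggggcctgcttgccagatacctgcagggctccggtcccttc

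The next coding members include named genes and uncharacterised ones. 4933402J07Rik, a 6-exon gene on chromosome 8 that lies 0.983 Mb from Abcc12, was at 654, 603 and 612 TPM in WT and at 682, 653 and 631 TPM in DKO. Despite that proximity its groups overlapped (log2 fold change 0.06, SE 0.0772; edgeR adjusted p = 0.610). 4933402P03Rik, now named Spem2 and a member of the SPEM family of spermatid proteins, was at 480, 415 and 445 TPM in WT and at 454, 488 and 500 TPM in DKO. It too overlapped between groups (log2 fold change 0.13, SE 0.0888; adjusted p by edgeR 0.320). 4933417A18Rik, on chromosome 13, was at 199, 167 and 172 TPM in WT and at 252, 214 and 205 TPM in DKO. All 3 DKO values in TPM lay above the WT values, but in CPM the groups overlapped and the difference did not pass the threshold (log2 fold change 0.31, SE 0.102; edgeR adjusted p = 0.0677). Beyond these, Taf7l2 (4933416C03Rik), an intronless relative of a TFIID transcription factor subunit, had 178 ± 9.57 TPM in WT (SD, n = 3). Stpg3 (4933433C11Rik), named for repeats of sperm-tail proteins, had 85.8 ± 9.94 TPM. Both were chosen for mention after their values were seen.

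Among noncoding members the most abundant was 4933432K03Rik, a long noncoding RNA of 597 bases on chromosome 7 and the shortest member. It was at 249, 236 and 248 TPM in WT and at 269, 264 and 274 TPM in DKO, so the groups did not overlap in TPM. In CPM they overlapped, and the log2 fold change was 0.01 (SE 0.0717; edgeR adjusted p = 0.915), while with an offset for effective length it was 0.18 (adjusted p = 0.111). 4933406F09Rik, a 2-exon RNA on chromosome 14, was the steadiest of the abundant ones, at 166, 174 and 170 TPM in WT and at 165, 162 and 173 TPM in DKO (log2 fold change -0.01, SE 0.0638; edgeR adjusted p = 0.900). 4933402J10Rik, on chromosome 5, was at 127, 101 and 116 TPM in WT and at 162, 130 and 120 TPM in DKO (log2 fold change 0.23, SE 0.121; edgeR adjusted p = 0.218). 4933427E11Rik, a single-exon RNA opposite Jrk on chromosome 15, was at 61.3, 66.8 and 75.6 TPM in WT and at 76.7, 73.1 and 79.4 TPM in DKO. Its difference did not pass the threshold (0.18 on the log2 scale, SE 0.0816; adjusted p by edgeR 0.157). The pseudogene 4933411G06Rik, on chromosome 10, was at 65.2, 56.7 and 62.6 TPM in WT and at 66.9, 57.1 and 72.8 TPM in DKO (log2 fold change 0.08, SE 0.0958; edgeR adjusted p = 0.597).

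At the other end, 9 noncoding and 0 coding members failed the count filter and were not tested. These 9 reached at most 17 counts in any library and 0.533 TPM in the WT mean. 4933432G23Rik and 4933432I03Rik were listed at 0 in all 3 WT libraries, which allows up to 0.114 CPM in the shallowest of them (3 counts, for counting error only). Each gave a trace in DKO, at most 0.04 and 0.05 TPM. The lowest coding member, 4933416I08Rik on X, was at 1.29, 0 and 0 TPM in WT and at 1.55, 0.66 and 0.52 TPM in DKO. Its counts were fractional, as were those of 2 other coding and 4 noncoding members, so fragments of these 7 members were shared with other genes and their values are uncertain. Replicates of tested members differed little in WT, with a median coefficient of variation of 5.64% for coding and 10.6% for noncoding members.

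The comparison of DKO with WT asks how these testis transcripts stand in the libraries labelled DKO, where Abcc12 transcript was lower and Abcc5 transcript was higher. Of 99 tested members, 9 were called at an adjusted p under 0.05 (9.09%), against 10.8% of all 17110 tested genes, so the share of called members was near the background. Higher calls numbered 7 (5.75% of all genes) and lower calls 2 (5.1% of all genes). Among the 30 coding members 4 rose and 0 fell, and at an unadjusted p under 0.05 there were 11 higher and 1 lower, against 17.3% and 15% of all coding genes. For all coding genes, 5.88% were called higher and 5.12% lower. DESeq2 called 1 coding member lower, 4933409G03Rik. Among the 69 tested noncoding members 3 rose and 2 fell, against 4.24% and 4.77% of all noncoding genes (9.01% in either direction). Non-overlapping groups were found for 30 of the 99 members, against 35.9% of all genes, and 18 of them were higher in DKO, against 18.4% of all genes. By class these were 9 coding and 21 noncoding members (30.0% and 30.4%), against 36.5% of all coding and 29.1% of all noncoding genes. The median log2 fold change was 0.14 for coding members (24 of 30 positive) and -0.02 for noncoding members (31 of 69 positive), beside 0.00 for all tested genes (49.3% positive). The coding genes of the neighbouring plates had a similar median of 0.18 (75 of 94 positive), and those of the 1700 series had 0.06 (73 of 122 positive). The 1700 coding genes were shorter, with a median length of 994 bases. With an offset for effective length the coding medians were 0.17 for members, 0.21 for the neighbouring plates and 0.13 for the 1700 series. All tested genes up to 1000 bases had a median of -0.14, and of -0.01 with that offset. The part of gene length in these medians was not tested. An absolute log2 fold change of 0.5 was reached by 6 of the 99 members, against 7.94% of all genes.

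**Figure D2:**
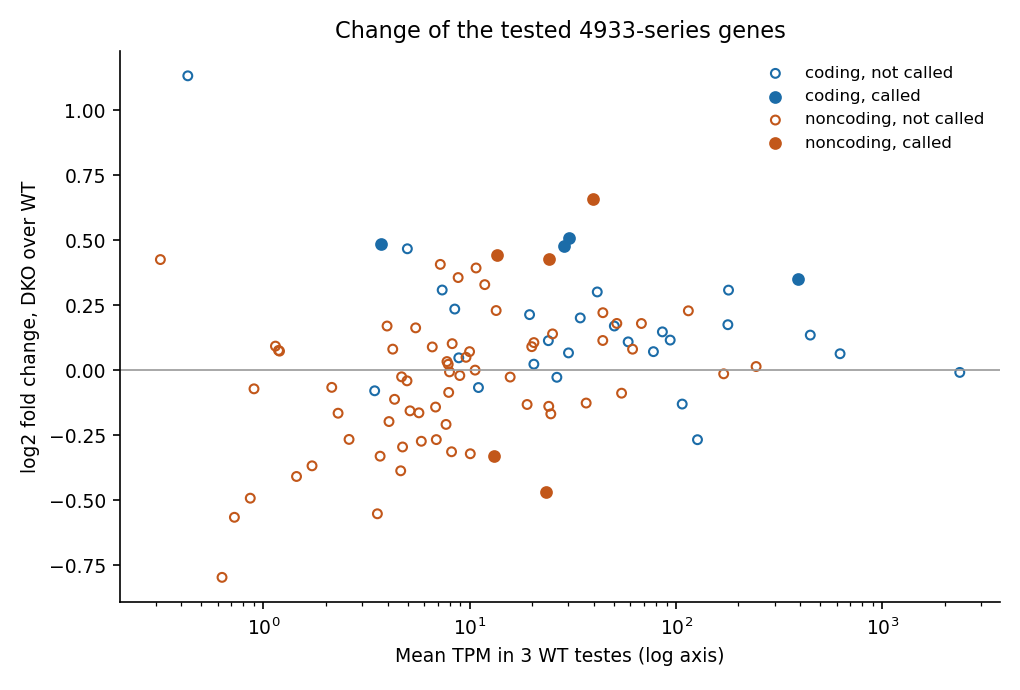
Log2 fold change in DKO over WT against mean WT TPM (log axis) for the 99 tested clone genes, with filled points for the 9 called genes. Coding genes lie mostly above 0 (24 of 30) and noncoding genes on both sides (31 of 69 above 0).

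The calls depended on which libraries entered. Without DKO replicate 1, WT replicate 2 or WT replicate 3, 0 members were called by edgeR (11, 13 and 7 genes over the whole table, or 0.0643%, 0.0747% and 0.0402%), while 17, 17 and 20 members had an unadjusted p under 0.05, against 20.9%, 21.8% and 24.8% of all genes. Without DKO replicate 2, 3 members were called (3.83% of all genes), without DKO replicate 3, 15 were called (17.7%), and without WT replicate 1, 12 were called (11.7%). limma called 4 members on log2(TPM + 1) and 5 on log2(TPM + 0.1), against 4.3% and 5.53% of all genes. With mean fragment length as a covariate 0 members were called (0.00584% of all genes, 1 gene), with 3 at an unadjusted p under 0.05 (3.19% of all genes), and the coding median was -0.01. The 1 gene was Abcc12 (log2 fold change -1.18; edgeR adjusted p = 0.0168). Fragment lengths did not overlap between the genotypes, so this fit can hardly separate the 2 and its lack of calls says little. With the effective-length offset all 9 members called without it were called (9.71% of all genes), and the coding median was 0.17.

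The coding members that rose were 3 genes with a current symbol and the uncharacterised 4933402N03Rik. 4933406M09Rik, now Mgat4f, is named as a relative of the N-acetylglucosaminyltransferases that branch N-linked glycans (GRCm38.p6 chr1:134385931-134391502, plus strand). It was at 34.5, 30.6 and 27.1 CPM in WT and at 47.7, 44.6 and 38.8 CPM in DKO. Every DKO library lay above every WT library, and the fold change was 1.42 (log2 0.51, SE 0.103; edgeR adjusted p = 0.0263). In TPM the means were 30.3 ± 3.26 in WT and 42.0 ± 3.70 in DKO (SD, n = 3 each). 4933402N03Rik, a 3-exon gene that overlaps the span of Fgfr2 on the same strand of chromosome 7, was at 18.6, 17.9 and 15.4 CPM in WT and at 26.7, 25 and 20.7 CPM in DKO. Its groups were apart as well, by 0.48 on the log2 scale (SE 0.112; adjusted p by edgeR 0.0331), whereas Fgfr2, at 1.1 TPM in WT, was at -0.12 (edgeR adjusted p = 0.733).

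4933406J08Rik is now Terb2, a component of the complex that tethers telomeres to the nuclear envelope while meiotic chromosomes pair. It was at 4.82, 4.57 and 4.49 CPM in WT and at 7.35, 6.79 and 5.39 CPM in DKO (0.49 on the log2 scale, SE 0.135; adjusted p by edgeR 0.0447). The groups did not overlap. Summed markers of spermatocytes, the cell type in which this complex acts, were at 4718 to 4873 TPM in WT and 4905 to 5206 TPM in DKO. The median log2 fold change of these 10 markers was 0.32. Of them 2 were called higher and 0 lower, against 5.75% and 5.1% of all genes. 4933415F23Rik, now Ppp1r14bl and named for likeness to an inhibitor subunit of protein phosphatase 1, was by far the most abundant called member. It was at 426, 345 and 419 CPM in WT and at 551, 508 and 457 CPM in DKO, a fold change of 1.27 (log2 0.35, SE 0.0977; edgeR adjusted p = 0.0453). Its gene has a single exon (GRCm38.p6 chr1:23100473-23102253, minus strand). The start-site windows of the most clearly changed and the most abundant of the 4 are shown, with motif letters in capitals; the single match is TATAAA read on the other strand, 174 bases before the Ppp1r14bl start.
4933406M09Rik, chr1:134385690-134385989, plus strand: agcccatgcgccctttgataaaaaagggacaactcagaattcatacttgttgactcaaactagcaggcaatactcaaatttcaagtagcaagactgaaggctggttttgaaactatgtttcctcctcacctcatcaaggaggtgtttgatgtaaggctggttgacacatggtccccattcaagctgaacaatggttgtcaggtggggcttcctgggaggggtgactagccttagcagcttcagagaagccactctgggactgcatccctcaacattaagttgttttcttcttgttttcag
4933415F23Rik, chr1:23102204-23102503, minus strand: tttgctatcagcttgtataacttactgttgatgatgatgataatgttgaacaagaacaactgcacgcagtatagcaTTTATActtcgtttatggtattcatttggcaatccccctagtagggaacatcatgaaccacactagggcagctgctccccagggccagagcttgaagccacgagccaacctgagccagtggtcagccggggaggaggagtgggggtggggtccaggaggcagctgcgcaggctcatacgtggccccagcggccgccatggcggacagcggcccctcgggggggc

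Of the 3 noncoding members that rose, both with the larger counts lie on chromosome X and are listed as transcribed pseudogenes. 4933400A11Rik (GRCm38.p6 chrX:169776378-169779635) had the largest increase of the called members. It was at 29.0, 21.9 and 26.6 CPM in WT and at 46.5, 40.6 and 35.1 CPM in DKO, a fold change of 1.58 (log2 0.66, SE 0.121; adjusted p by edgeR 0.0237). The groups did not overlap. It lies opposite Mid1, a microtubule-associated ubiquitin ligase gene at 2.42 ± 0.454 TPM in WT (SD, n = 3), whose log2 fold change was 1.23 (SE 0.472; edgeR adjusted p = 0.10). 4933401B06Rik, a single-exon pseudogene, was at 19.0, 14.9 and 13.2 CPM in WT and at 21.6, 21.7 and 19.8 CPM in DKO (log2 fold change 0.43, SE 0.121; edgeR adjusted p = 0.0471). Its lowest DKO library was close to the highest WT library. 4933438K21Rik, a 3-exon long noncoding RNA on chromosome 4, was at 15.3, 11.6 and 12.5 CPM in WT and at 20.8, 16.9 and 15.9 CPM in DKO (log2 fold change 0.44, SE 0.128; edgeR adjusted p = 0.0490). For 3 of the 7 members that rose (4933415F23Rik, 4933400A11Rik and 4933438K21Rik), CPM within each genotype increased in the order of mean fragment length. That was so for 12.1% of all tested members and 9.38% of all tested genes, which were not picked for a rise in DKO as the 7 were. With fragment length as a covariate the log2 fold changes of these 3 were -0.02, 0.13 and -0.09. Those of the other 4 that rose, 4933406M09Rik, 4933402N03Rik, 4933406J08Rik and 4933401B06Rik, were 0.20, 0.17, 0.09 and 0.18, and none of the 7 passed the threshold in that fit. The part of fragment length in these rises was not tested.

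Both members that fell are long noncoding RNAs with very even WT values. 4933432I09Rik, on chromosome 16 at 2.12 Mb from Abcc5 (GRCm38.p6 chr16:18209686-18213863, minus strand), was at 17.5, 17.5 and 17.4 CPM in WT. In DKO it was at 11.6, 13.0 and 13.2 CPM, 0.722 of the WT level (log2 fold change -0.47, SE 0.0869; edgeR adjusted p = 0.0237). In TPM it was 23.3 ± 0.908 in WT and 16.5 ± 1.2 in DKO (SD, n = 3 each), again without overlap. 4933404G15Rik, the other member within 10 Mb of Abcc5, did not pass the threshold (log2 fold change 0.22, edgeR adjusted p = 0.142). 4933433G08Rik, a 2-exon RNA on chromosome 9 (GRCm38.p6 chr9:61103012-61105386, minus strand), was at 14.2, 13.8 and 13.7 CPM in WT and at 10.2, 11.4 and 11.6 CPM in DKO (-0.33 on the log2 scale, SE 0.0892; adjusted p by edgeR 0.0410). The windows of both are given, for 4933432I09Rik at the outer of its 2 starts. Capitals mark the arm GTTGCCA of the X-box bound by RFX factors, found 44 and 16 bases before that start, and the 4933433G08Rik window held none of the letters searched.
4933432I09Rik, chr16:18213814-18214113, minus strand: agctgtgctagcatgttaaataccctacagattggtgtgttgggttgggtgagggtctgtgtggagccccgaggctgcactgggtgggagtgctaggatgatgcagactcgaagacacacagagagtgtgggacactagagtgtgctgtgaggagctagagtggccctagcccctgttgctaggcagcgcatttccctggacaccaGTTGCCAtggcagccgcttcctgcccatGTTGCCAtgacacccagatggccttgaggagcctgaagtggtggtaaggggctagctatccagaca
4933433G08Rik, chr9:61105337-61105636, minus strand: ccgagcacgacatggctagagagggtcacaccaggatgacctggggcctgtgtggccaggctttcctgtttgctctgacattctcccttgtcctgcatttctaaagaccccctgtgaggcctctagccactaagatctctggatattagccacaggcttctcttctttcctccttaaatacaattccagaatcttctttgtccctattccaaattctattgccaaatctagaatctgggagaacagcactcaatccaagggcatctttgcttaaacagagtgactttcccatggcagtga

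**Figure D3:**
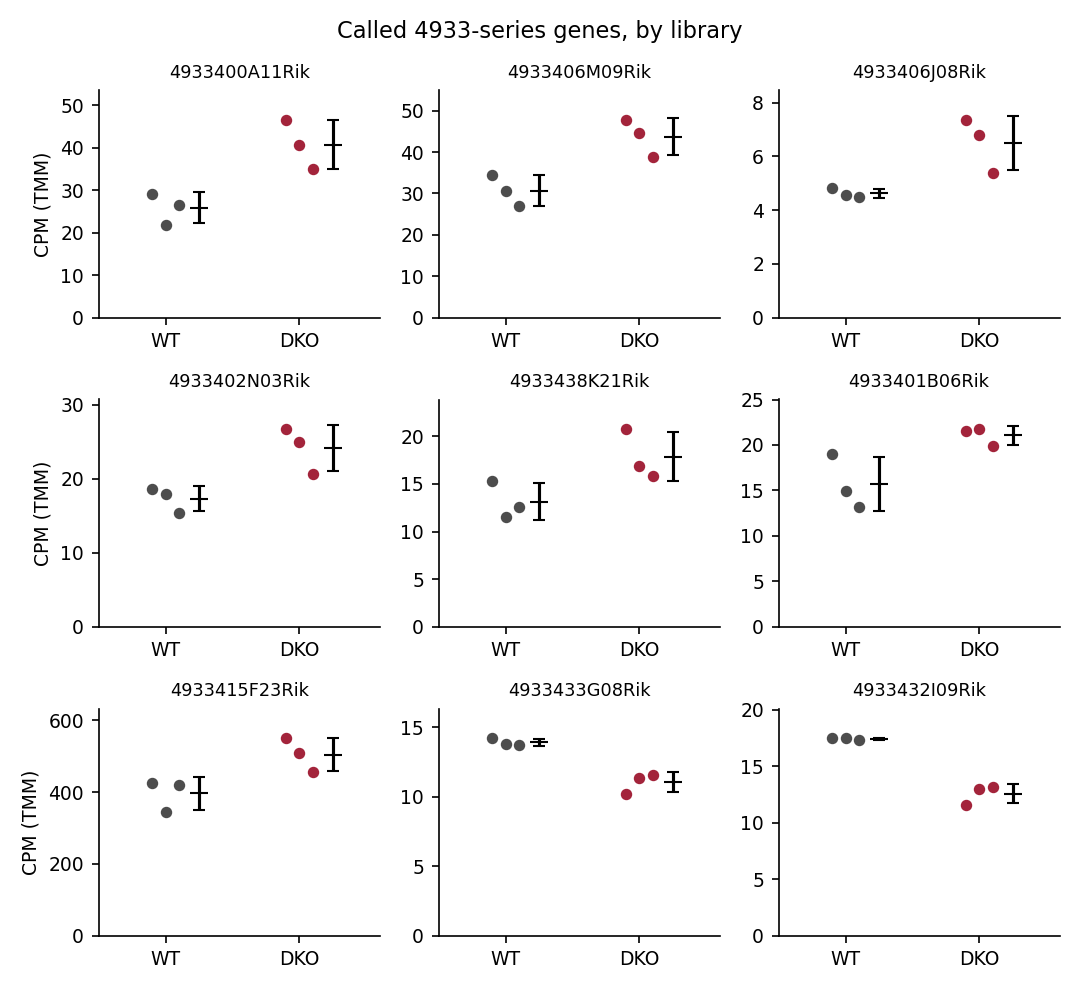
CPM in each library for the 9 called clone genes, ordered from the largest increase to the largest decrease, with points for libraries 1 to 3 and bars for the mean ± SD (n = 3). In every panel the WT and DKO points are apart, by a wide margin in 4933400A11Rik (21.9 to 29.0 against 35.1 to 46.5 CPM) and a narrow one in 4933401B06Rik (13.2 to 19.0 against 19.8 to 21.7 CPM).

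Several members lay just outside the threshold and were not called. The nearest were 4933408N05Rik, at -0.55 on the log2 scale (SE 0.163; adjusted p by edgeR 0.0506), and 4933429O19Rik, at 0.41 (SE 0.122; adjusted p by edgeR 0.0523). Just inside it stood 4933438K21Rik and 4933401B06Rik, given above. 4933409G03Rik, a 17-exon coding gene at 127 ± 5.03 TPM in WT, was the coding member with the lowest log2 fold change, -0.27 (SE 0.0906; edgeR adjusted p = 0.0721), and its groups did not overlap. These 3 genes were chosen after their values were seen.

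The 7 members on X all had a positive log2 fold change, from 0.17 to 1.13 with a median of 0.43. That sign held for all 7 under the other normalisation, filters, tools, TPM scales and left-out libraries, and for 4 of 7 with fragment length as a covariate. These fits reuse the same libraries, so the kept sign is no independent support. The groups of 4 of the 7 did not overlap, against 32.2% of tested X genes, and for such genes leaving out 1 library could hardly turn the sign. The 7 include 4933416I08Rik, whose low and fractional counts are given above. Members on autosomes had a median of 0.02 (48 of 92 positive), all tested genes on X a median of 0.08 (62.1% of 749 positive) and all tested autosomal genes a median of -0.01. Of the 7, 2 were called, both pseudogenes described above, where 13.2% of tested X genes were called. Among the others, 4933402E13Rik was at 38.3 ± 3.55 TPM in DKO and 34.3 ± 1.93 TPM in WT, and 4933436I01Rik at 50.4 ± 7.33 and 41.5 ± 4.29 TPM (SD, n = 3 each). Their log2 fold changes of 0.20 and 0.30 did not pass the threshold (edgeR adjusted p = 0.0914 and 0.105). 4933403O08Rik had 6.77 ± 1.29 TPM in DKO and 4.98 ± 0.972 TPM in WT (edgeR adjusted p = 0.0968), and 4933407K13Rik had a log2 fold change of 0.17 (edgeR adjusted p = 0.235). Genes on X are silenced during meiosis and some are transcribed again in spermatids, which is background and was not examined here.

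**Figure D4:**
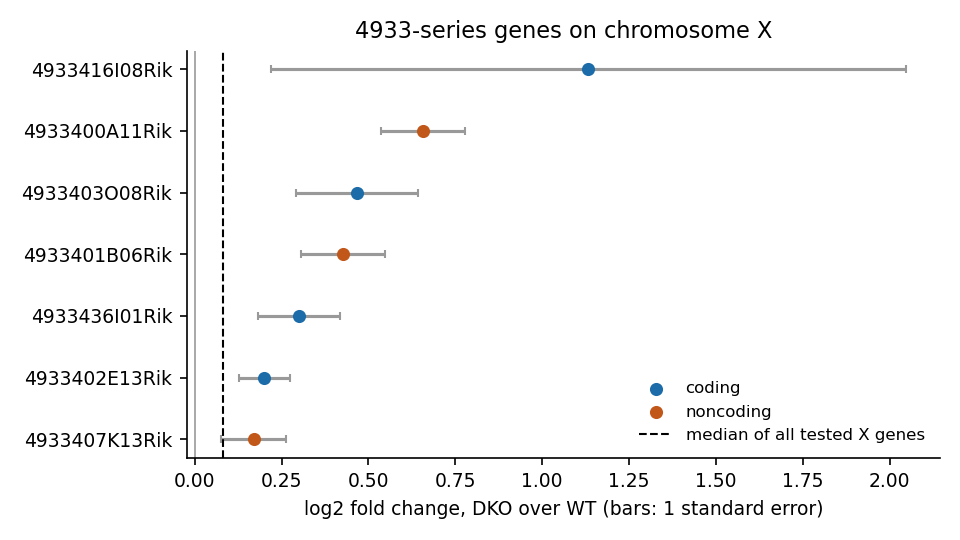
Log2 fold change in DKO over WT, with 1 standard error, for the 7 clone genes on chromosome X, coloured by accession class. All 7 points lie to the right of the dashed line at 0.08, the median of all 749 tested X genes, and 4933416I08Rik has by far the widest error (1.13, SE 0.913).

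Start sites of some members face those of a coding neighbour, an arrangement in which one stretch of DNA can serve both genes. In GENCODE M21, 11 members (5 coding, 6 noncoding) had a coding gene on the opposite strand starting within 1 kb upstream. The distances ran from 81 bases (4933405L10Rik and Enkd1) to 301 bases (4933430I17Rik and Pole3). The sign of the log2 fold change was shared in 4 of the 11 pairs, 0 partners were called (against 10.8% of all genes), and the member was the more abundant in 4. 4933417A18Rik and Fam217a, 99 bases apart, were at 179 and 150 TPM in WT, with log2 fold changes of 0.31 (SE 0.102) and 0.23 (SE 0.104). Terb2 (4933406J08Rik) and Patl2, 83 bases apart, were at 3.73 and 0.417 TPM, with 0.49 (SE 0.135) and 0.12 (SE 0.281). In the opposite way, 4933406I18Rik and Pde3b, 120 bases apart, had -0.27 (SE 0.171) and 0.32 (SE 0.115), neither past the threshold. Differences within pairs were not tested. Among the 21 members with a tested neighbour on the opposite strand, 0 of 23 such neighbours were called, against 10.8% of all genes. Both lists of neighbours are too short to be set apart from that share. The noncoding 4933431E20Rik, at 4.06 TPM, overlaps the span of Gstm5 at 3862 TPM, and its log2 fold change was -0.20 beside -0.02 for that gene.

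**Figure D5:**
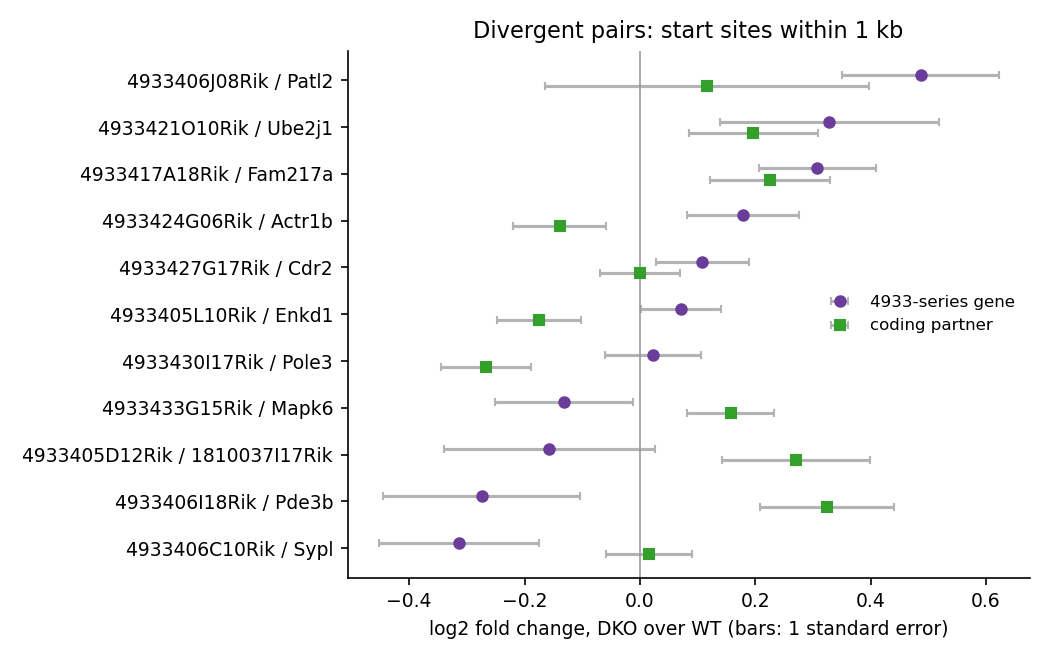
Log2 fold change in DKO over WT, with 1 standard error, for 11 clone genes (circles) and the coding gene that starts within 1 kb on the opposite strand (squares). The sign is shared in 4 pairs, among them 4933417A18Rik and Fam217a at 0.31 and 0.23, and differs in the rest.

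The files also give each gene's length averaged over its transcripts with their estimated abundances as weights, so a shift between groups reflects a different estimated mix of transcripts. Of 9 tested members with several accessions and a varying length, 4 had no overlap between groups, against 16.8% of 4457 such genes in the table. The largest shift was in 4933434E20Rik, a coding gene on chromosome 3 with 4 accessions. Its weighted length was 1589 ± 9.63 bases in WT and 1487 ± 43.9 bases in DKO (SD, n = 3 each), while its level did not pass the threshold (93.6 ± 2.44 TPM in WT, 108 ± 9.86 TPM in DKO; edgeR adjusted p = 0.301). The other 3 shifts were smaller, at 1613 to 1591 bases for 4933431G14Rik, 981 to 976 bases for 4933402J10Rik and 1372 to 1377 bases for 4933432I09Rik. Fragment lengths also differed between the groups, and their part in these estimates was not tested.

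Promoter letters were counted in the RefSeq windows of 300 bases, available for 26 coding and 59 noncoding members and for 27025 genes in all. On either strand, the X-box arm GTTGCCA was present in 3 of 26 coding (11.5%) and 7 of 59 noncoding members (11.9%), against 5.02% of all genes. The MYB letters GGCAGTT were present in 0 of 26 coding and 6 of 59 noncoding members (10.2%), against 4.76% of all genes. The palindromic cAMP response element TGACGTCA was present in 1 member, the noncoding 4933417D19Rik, 33 bases before its start, against 2.03% of all genes. TATAAA was present in 4 coding (15.4%) and 7 noncoding members (11.9%), against 15.7% of all genes. The median number of CpG pairs in a window was 4 for coding and 4 for noncoding members, beside 7 over all genes, 13 over protein-coding genes and 4 over long noncoding RNA genes, so noncoding members had the same median as long noncoding RNA genes in general. These counts describe letters in a window and carry no test.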

How the data were processed

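Whole-testis RNA was sequenced in 6 libraries, 3 per genotype, grouped by the genotype label and numbered in order of deposition. The authors deposited 1 gene-level RSEM file per library, unpooled, with expected counts, TPM, FPKM and lengths, per the file headers. STAR 2.7.0f, RSEM 1.2.31, DESeq2 1.12.3 and mm10 are listed in the submitters' processing notes; filters and strand are not given in the sources used here. Expected counts, 93.2% of them whole (tolerance 1e-06), as deposited by the authors were rounded. Genes were filtered by filterByExpr, scaled by TMM and tested by the quasi-likelihood test of edgeR 4.0.16 (R 4.3.3) over all 17110 tested genes, with genotype as the only term and Benjamini-Hochberg adjustment. CPM are counts over the TMM-scaled library size. TPM and FPKM as deposited by the authors describe levels. The standard error is the absolute log2 fold change over the square root of F. The script was tested on simulated data with known fold changes. Depth was 26753721 to 67131103 counts. Mean fragment length was read from genes longer than 3000 bases.

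The members and lists were chosen with earlier results of these data known. Named genes were the targeted pair, the 5 members of each class highest in WT TPM, up to 5 called members per class and direction with the smallest p that averaged 0 or more on the log2 CPM scale, and called members within 10 Mb of a targeted gene. Alternatives were DESeq2 size factors, no count filter, DESeq2 1.42.0, limma 3.58.1 on log2(TPM + 1) and log2(TPM + 0.1), an effective-length offset, fragment length as a covariate, and each library left out. For levels they were FPKM and a minimum of 0.1 TPM. Positions and promoter windows came from RefSeq GRCm38.p6 (106 members matched by accession, 2 by symbol), gene models from GENCODE M21. Proteins were not used here.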

Additional observations from a re-analysis of the deposited data

How the results depend on the processing

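No paired analysis was possible because the labels give no number shared between the genotypes. Over all genes, 1856 calls became 2864 with DESeq2, 735 and 947 with limma on log2(TPM + 1) and log2(TPM + 0.1), and 1 with fragment length as a covariate. Coding members called higher were 4, and 2, 2 and 0 in the last 3 settings; noncoding members called higher were 3, and 1, 1 and 0; noncoding members called lower were 2, and 1 on log2(TPM + 1) and 0 with the covariate; coding members called lower were 0, and 1 with DESeq2. The coding median log2 fold change was -0.0124 with the covariate, and the noncoding median 0.0185 with the offset. In the covariate fit 4933402J07Rik, 4933415F23Rik, 4933417A18Rik, 4933402J10Rik and 4933438K21Rik turned to -0.12, -0.0247, -0.11, -0.33 and -0.0853, 4933411K16Rik to 0.0338 and 4933406F09Rik to 0.0017. With the offset, 4933411K16Rik and 4933406F09Rik turned to 0.0136 and 0.0152. Fragment lengths of WT and DKO are apart; the cause of these changes was not tested. Leaving out 1 library gave 7 to 3029 calls over all genes, 0 to 7 coding and 0 to 5 noncoding members higher, 0 to 1 coding and 0 to 3 noncoding members lower, and medians from 0.0711 to 0.17 (coding) and -0.0388 to 0.0093 (noncoding). In these fits 4933411K16Rik ranged from -0.0616 to 0.0273, 4933432K03Rik from -0.0273 to 0.0414 and 4933411G06Rik from -0.0037 to 0.14. The median WT level was 21.8 and 4.75 in FPKM for coding and noncoding members, and 7.71 TPM for noncoding members at 0.1 TPM or more. Both members that fell kept their direction in all 13 alternatives, as did 5 of the 7 that rose. The groups of these called members were apart in CPM and the fits share libraries. Leaving out 1 library could therefore hardly turn a sign, and the kept directions are no independent support. Depth limits what can be said of the 9 members not tested.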
